A study of Mus musculus with 371 samples.

Results

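Cells sorted as CD8 from B16F10 tumours of wild type (WT) mice were compared, gene by gene, with cells of the same sort from mice labelled IL27raKO (KO), a name for mice without the alpha chain of the IL-27 receptor. B16F10 is a mouse melanoma line that grows as a tumour in C57BL/6 mice, the strain named for every sample here. The CD8 sorts held 94 WT and 90 KO cells of a series that also holds 94 WT and 93 KO cells of CD4 sorts. Cells with at least 1000 genes at 1 FPKM (fragments per kilobase of transcript, scaled to the depth of the library) or above were used, which left 90 WT and 86 KO CD8 cells. The nearest cells to that limit had 1358 and 1456 genes inside it and 966 and 922 outside in WT, and 1061 and 1178 inside and 996 outside in KO. The cells were profiled by Smart-seq2, which copies and sequences full-length cDNA from 1 cell. The cells of 1 genotype and sort are called a pool here. The titles of each pool carry a word of its own, dog for the WT and bird for the KO CD8 cells. They do not say what the word marks. Another tag in the titles, also not explained there, differs between the CD8 and CD4 sorts. A difference between the pools cannot be told apart from one between the genotypes. Cells of 1 pool are not replicates, and no test, p-value or standard error was computed between the pools. Neither the age of the mice nor how many gave cells to a pool is stated in the labels.

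IL-27 is a cytokine made mainly by activated myeloid cells. It signals through IL27RA and the shared chain gp130 to the kinases JAK1, JAK2 and TYK2, which activate transcription factors of the STAT family, STAT3 among them. Interferons signal through factors of the same family, and interferon targets include the GTPases named after them and the genes that process and load peptides onto MHC class I. In tumour-infiltrating CD8 T cells, IL-27 is known for inducing co-inhibitory receptors together with IL-10 and the factors Blimp-1 and c-Maf.

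The label of the sort was checked first. Cd8a or Cd8b1, the chains of the CD8 co-receptor, were at 1 FPKM or above in 83 of 90 WT and 84 of 86 KO cells, and a CD3 chain in 89 of 90 and 86 of 86. Cd4 was below 1 FPKM in every cell of both pools, with values above 0 in 2 WT and 5 KO cells and a highest value of 0.95 FPKM; a count of 0 at 1 FPKM allows a share of up to 3.33% in WT and 3.49% in KO (counting error only). Marker sums of 10 FPKM or above were seen for macrophages and monocytes in 11 WT and 8 KO cells, for B cells in 5 and 4, for NK cells in 4 and 1, for dendritic cells in 2 and 0, for neutrophils in 1 and 0, and for fibroblasts or red cells in none. The regulatory T cell list reached that sum in 20 WT and 10 KO cells, with highest sums of 127.67 and 1422.79 FPKM. Foxp3 was below 1 FPKM in every WT cell, while in KO each gene of the list was in at least 4.65% of cells. The CD4 T cell list reached 10 FPKM in 1 WT and 4 KO cells. The endothelial list reached it in 9 and 12, with Cdh5 and Kdr below 1 FPKM in every cell. The part of these transcripts in the differences below was not tested. Summed over 6 melanoma genes, 31 WT cells (34.4%, exact Clopper-Pearson 95% interval 24.7 to 45.2) and 27 KO cells (31.4%, 21.8 to 42.3) reached 10 FPKM. Il27ra itself (mm10, chromosome 8, 84030294 to 84042589, minus strand) was detected at 1 FPKM in 51.1% of the WT and 53.5% of the KO cells, with medians of 1.26 and 2.02 FPKM. The value counts reads from every exon, so it cannot check a deletion of part of the gene, and KO stands below for the cells labelled KO.

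The 2 pools differed in how many genes a cell showed. The number of genes at 1 FPKM or above ran from 1358 to 5520 with a median of 2148 in WT cells, and from 1061 to 3303 with a median of 1955 in KO cells. Cells with 3000 genes or more made up 21 of the 90 WT cells (23.3%, 15.1 to 33.4) against 3 of 86 KO cells (3.49%, 0.725 to 9.86). Transcripts of activated T cells were common in these WT cells: 19 of the 21 had Prf1, and 19 had at least 3 of the receptors Pdcd1, Havcr2, Lag3 and Tigit, against 23 and 6 of the 69 WT cells with fewer genes. 7 of them had both proliferation genes Mki67 and Top2a, against 2 of the 69. Cells chosen for showing many genes also show other genes often, and these counts were not set against a share over all genes. In the same 21 cells Dad1 was in 20 and Snx5 in 21, while Il7r was in 5 and Gpr18 in 3. Of the 3 KO cells with 3000 genes or more, 1 had Prf1 and 2 had at least 3 of the receptors. Markers of other immune cells reached 10 FPKM in 6 of the 21 (28.6%, 11.3 to 52.2), in 12 of the other 69 WT cells (17.4%, 9.32 to 28.4) and in 12 of the 83 KO cells under 3000 genes (14.5%, 7.70 to 23.9). The median total of FPKM in a cell was 891980 in these WT cells and 505571 in the other WT cells. No doublet caller was used, and the part that these cells or the other immune cells play in the differences below is given by the values without them, not by a test.

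**Figure D1:**
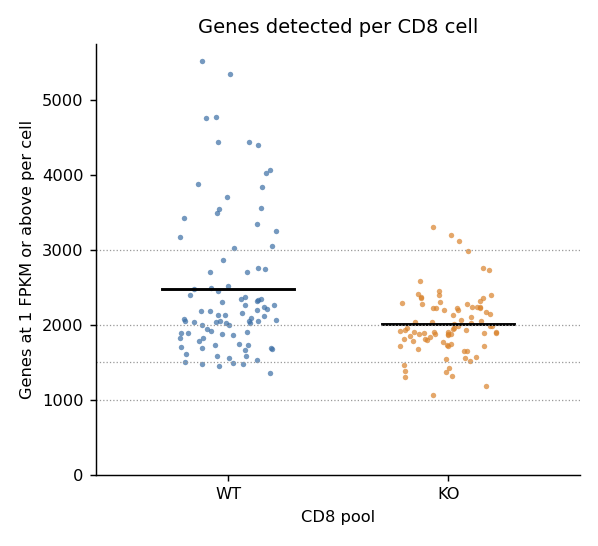
Number of genes at 1 FPKM or above in each CD8 cell (vertical axis) of the WT and KO pools; points are cells, black lines are means, and dotted lines mark 1000, 1500, 2000 and 3000 genes. 21 WT cells and 3 KO cells lie at or above 3000 genes.

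Because of that difference every gene was described in 2 ways. The difference of a gene is the mean over KO cells minus the mean over WT cells of log2(FPKM + 1), which includes cells at 0 and understates the fold of low genes. The same difference was then taken within ranges that start at 1000 genes per cell (5 WT and 8 KO cells), 1500 (26 and 40) and 2000 (38 and 35) and end at the next start or at 3000, and averaged by the number of cells. This value is called the difference at equal genes per cell; it leaves out the cells with 3000 genes or more, where KO had 3. Within the range from 1500 genes the KO cells still had slightly more genes, with a median of 1866 against 1737.

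Over all cells, most genes were lower in KO. Of 4686 genes present at 1 FPKM in at least 20% of the cells of either pool (measured genes), 622 (13.3%) were lower in KO by 1 log2 unit or more, 26 (0.555%) were higher by as much, and 78.7% had a difference below 0. The median difference was -0.40. At equal genes per cell the picture was nearly balanced, with 99 genes (2.11%) at -1 or below, 2.5% at 1 or above, 49.5% below 0 and a median of 0.00. Leaving out the cells with 3000 genes or more, with no other adjustment, gave 4.02% and 2.12% of genes at these sizes and a median of -0.05. Leaving out the cells with markers of other immune cells gave 18.3% and 0.764% and a median of -0.46. Of the 622 genes, 91 were at -1 or below in both descriptions and 32 turned above 0. Of the 26, 17 were at 1 or above in both. The median share of cells with a gene was 44.4% in WT and 25.6% in KO over the 622 genes. It was 34.4% and 27.9% over all measured genes. The 622 were chosen by a mean that includes cells at 0, so a lower share follows in part from that choice. The level in cells that had the gene differed by a median of -0.05 log2 units over 614 of them, those with at least 5 such cells in each pool. Over the 4664 measured genes with as many cells it differed by 0.11.

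The lists of genes separated along this line. Respiratory chain, glycolysis, proteasome, splicing and exhaustion factor lists had medians below that of all genes over all cells, and medians between -0.08 and 0.25 at equal genes per cell. Ribosomal proteins had a median of -0.35 over all cells, near that of all genes, with 37 of 39 below 0 and 1 at -1 or below. At equal genes per cell their median was -0.08, with 25 of 39 below 0. Interferon-induced GTPases and the genes of peptide loading had medians below that of all genes in both descriptions, and the lowest list medians at equal genes per cell. Other lists were also below all genes in both. Among them were NK-type lectin receptors (-1.34 and -0.49), DNA replication (-0.97 and -0.34) and interferon regulatory factors (-0.60 and -0.41). Quiescence genes and chemokine receptors were among the lists with medians above 0 in both. Counts of list members below are to be read against all measured genes, of which 78.7% were below 0 and 13.3% at -1 or below over all cells, and 49.5% and 2.11% at equal genes per cell.

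**Figure D2:**
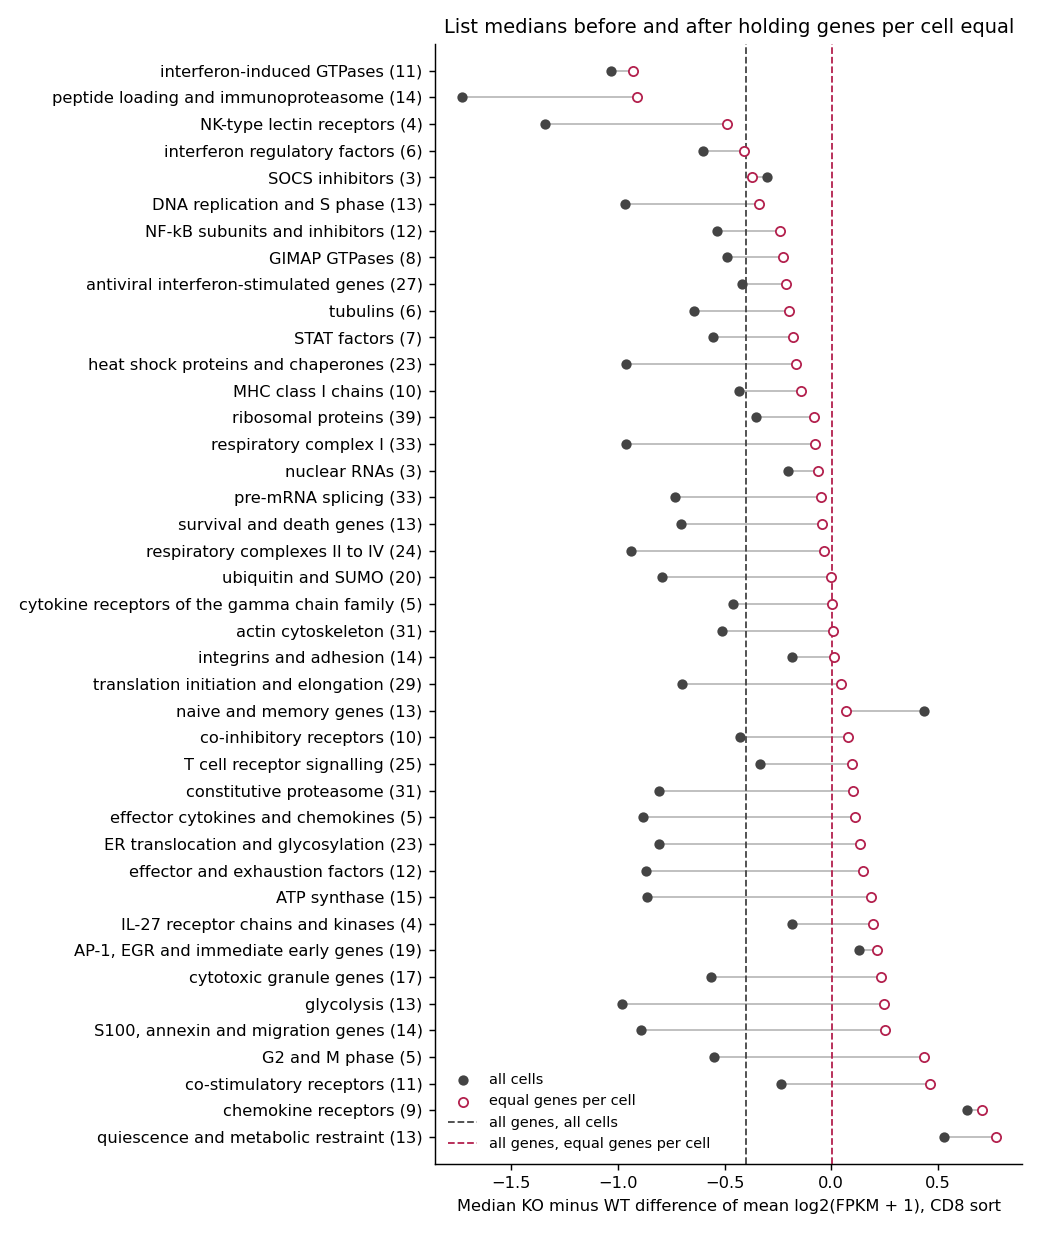
Median KO minus WT difference of each gene list in CD8 cells (horizontal axis, log2 units; number of measured genes in parentheses), over all cells (filled) and at equal genes per cell (open), with dashed lines at the medians of all measured genes, -0.40 and 0.00. Interferon-induced GTPases, at -1.03 and -0.93, and peptide loading, at -1.73 and -0.91, stand at the top, and quiescence genes, at 0.53 and 0.77, at the bottom.

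Stat3, a factor that IL-27 activates, differed by -1.52 over all cells and -0.76 at equal genes per cell. Stat2, a factor of type I interferon signalling, was detected in 21.1% and 11.6% of cells and differed by -0.51 and -0.71. Stat4, which relays IL-12, differed by -0.57 and 0.11, and Stat5b, which relays IL-2 family cytokines, by 0.20 and 0.38.

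The kinases and inhibitors of the receptor pathway differed by less than 1 log2 unit in both descriptions. Jak1, the kinase bound to gp130, was detected in 83.3% and 88.4% of cells, with a difference of 0.09 over all cells and 0.57 at equal genes per cell. Tyk2 differed by -0.74 and -0.18, and Jak2 by -0.46 and -0.32. Socs1 and Socs3, inhibitors that STAT factors induce, differed by -0.30 and -0.28 over all cells and by -0.37 and -0.66 at equal genes per cell. All 6 measured interferon regulatory factors were below 0 in both descriptions, against 78.7% and 49.5% of all measured genes, with medians of -0.60 and -0.41. Among them Irf1, which drives class I genes, differed by -0.52 and -0.66. Its sign changed between ranges of genes per cell, with -1.38 from 1000 genes, -1.68 from 1500 and 0.40 from 2000. Irf8, which T cells make after activation, had 26.7% of WT and 4.65% of KO cells and a difference of -1.82 that shrank to -0.44 at equal genes per cell.

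Interferon-induced GTPases act inside cells against vacuolar pathogens and are textbook targets of interferon signalling. 11 of the 17 in the list were measured, and all 11 were lower in KO in both descriptions, against 78.7% of all measured genes over all cells and 49.5% at equal genes per cell. 6 were at -1 or below over all cells and 5 at equal genes per cell, against 13.3% and 2.11%. The mean log2 level over the 11 genes ranged from 0 to 7.51 with a median of 1.98 in WT cells and from 0 to 6.83 with a median of 0.85 in KO cells, and 64 of 86 KO cells lay below the WT median. This level followed the number of genes in a cell less closely than that of peptide loading did, with a Pearson correlation of 0.196 across 90 WT cells and 0.359 across 86 KO cells, against 0.721 and 0.603 for peptide loading (a description; the cells of a genotype share 1 pool).

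Tgtp2, a T cell GTPase of the immunity-related family, was detected in 50% (39.3 to 60.7) of the WT and 26.7% (17.8 to 37.4) of the KO cells. Its median was 1.12 FPKM in WT and 0 in KO, its highest value 2525 and 2658 FPKM, and its difference -2.15 over all cells and -2.56 at equal genes per cell. In the WT pool it was most common in cells with few genes, in 4 of 5 cells with under 1500 genes and 7 of 21 with 3000 or more. Its near copy Tgtp1 differed by -0.92 and -1.13; reads could be split between the 2, so each value is uncertain. The guanylate-binding proteins Gbp6 (-1.86 and -1.49) and Gbp4 (-1.11 and -0.93) had 46.7% and 50% of WT cells, against 19.8% and 31.4% of KO cells. Irgm1, which controls the other GTPases of its family, differed by -1.08 and -1.03, and Igtp by -0.99 and -1.03. Gbp2 differed by -1.10 over all cells and -0.75 at equal genes per cell.

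The promoters of these genes were searched for 2 motifs, on both strands, because the list moved together. One is the core of the interferon-stimulated response element, GAAA and GAAA with any 2 bases between them, which IRF factors bind. The other, TTCNNNGAA, is the core of the gamma-activated site, which STAT dimers bind. The window of 300 bases ran from 250 before to 50 after the RefSeq start on GRCm38.p6, and matches of the motifs may overlap. Of 27025 genes with such a window, 3.99% held the response element core and 9.55% held TTCNNNGAA. Among the measured genes with a window, 4.82% and 9.04% of 3549 held them. All 7 genes of the GTPase list with a window held the response element core and 4 held TTCNNNGAA. Ifi47, a GTPase placed in the antiviral list, had a window too and held neither motif. Among antiviral interferon-stimulated genes 10 of 22 and 8 of 22 held them, and among peptide loading genes 2 of 11 and 1 of 11. Of the genes at -1 or below over all cells, 3.53% (17 of 481) held the response element core. At equal genes per cell, 15.4% (12 of 78) of the genes at -1 or below did. Of the genes at 1 or above there, 6.67% (6 of 90) did. TTCNNNGAA was in 17.95% of these lower genes and 10% of these higher ones. The 78 lower genes include members of the interferon lists, such as Tgtp2, Irgm1 and Bst2. A match is a run of letters and says nothing of binding in these cells. Nlrc5, Tap2, Gbp4 and Gbp6 had no window.

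The sequences below show how closely the matches sit, with the first 280 bases of each window in the direction of the gene, in lower case, and matches of either motif on either strand in capitals. Tgtp2 (chr11:49064183-49064462, minus strand) held 1 of each motif separated by a pair of bases. Irgm1 (chr11:48871391-48871670, minus strand) held the response element core at 2 overlapping positions just before its start, and Gbp2 (chr3:142620413-142620692, plus strand) held it once on the other strand. Bst2 (chr8:71537443-71537722, minus strand), which encodes the antiviral membrane protein tetherin, held the response element core at 2 positions and TTCNNNGAA at 1, fused in a single run. Psme1 (chr14:55578244-55578523, plus strand), of the proteasome activator, held its match after its start. Tap1 (chr17:34187306-34187585, plus strand), the second lowest gene of the whole comparison, held neither in this window, which it shares on the opposite strand with Psmb9.
Tgtp2: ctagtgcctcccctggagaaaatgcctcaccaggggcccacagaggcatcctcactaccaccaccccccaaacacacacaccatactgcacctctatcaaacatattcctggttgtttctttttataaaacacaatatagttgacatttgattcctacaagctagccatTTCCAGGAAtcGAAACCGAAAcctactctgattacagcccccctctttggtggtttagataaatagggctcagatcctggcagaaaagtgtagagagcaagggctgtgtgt
Irgm1: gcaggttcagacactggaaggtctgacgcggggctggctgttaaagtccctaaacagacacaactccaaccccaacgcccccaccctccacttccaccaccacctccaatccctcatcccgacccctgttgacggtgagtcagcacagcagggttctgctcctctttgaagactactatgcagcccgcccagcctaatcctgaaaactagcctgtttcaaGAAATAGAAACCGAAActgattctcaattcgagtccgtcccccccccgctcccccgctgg
Gbp2: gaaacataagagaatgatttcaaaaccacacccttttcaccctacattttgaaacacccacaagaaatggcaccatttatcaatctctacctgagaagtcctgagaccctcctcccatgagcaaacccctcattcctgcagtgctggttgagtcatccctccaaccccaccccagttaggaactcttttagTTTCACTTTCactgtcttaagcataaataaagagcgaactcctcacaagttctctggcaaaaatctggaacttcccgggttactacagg
Bst2: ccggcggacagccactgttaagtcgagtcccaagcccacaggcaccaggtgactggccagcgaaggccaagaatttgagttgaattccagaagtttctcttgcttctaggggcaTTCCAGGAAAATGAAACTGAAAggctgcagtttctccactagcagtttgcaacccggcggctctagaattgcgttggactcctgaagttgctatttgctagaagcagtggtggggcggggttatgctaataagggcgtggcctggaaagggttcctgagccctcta
Psme1: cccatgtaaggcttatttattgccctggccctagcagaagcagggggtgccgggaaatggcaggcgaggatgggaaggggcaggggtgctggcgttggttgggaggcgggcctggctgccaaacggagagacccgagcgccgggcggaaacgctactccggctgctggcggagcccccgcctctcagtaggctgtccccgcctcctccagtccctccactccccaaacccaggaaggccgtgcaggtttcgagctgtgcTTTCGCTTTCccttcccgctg
Tap1: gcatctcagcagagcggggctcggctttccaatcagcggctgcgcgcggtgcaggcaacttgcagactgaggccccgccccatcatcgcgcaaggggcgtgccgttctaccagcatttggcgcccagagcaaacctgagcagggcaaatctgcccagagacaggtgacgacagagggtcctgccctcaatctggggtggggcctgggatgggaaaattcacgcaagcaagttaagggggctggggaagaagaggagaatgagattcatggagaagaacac

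The genes that cut, transport and load peptides for MHC class I were lower in KO as a group. All 14 were measured. All 14 were below 0 over all cells, 10 of them at -1 or below, and 12 were below 0 at equal genes per cell, 6 of them at -1 or below. Of all measured genes 78.7% and 13.3% did so over all cells, and 49.5% and 2.11% at equal genes per cell. The median was -1.73 over all cells and -0.91 at equal genes per cell. The mean log2 level over the 14 genes ranged from 0.569 to 8.21 with a median of 5.45 in WT cells, and from 0.363 to 8.36 with a median of 3.64 in KO cells. 75 of 86 KO cells lay below the WT median. The gap differed between ranges of genes per cell: medians were 1.84 in WT and 2.30 in KO from 1000 genes, 3.60 and 3.35 from 1500, and 5.65 and 4.24 from 2000, where 29 of 35 KO cells lay below the WT median.

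Tap1, which with Tap2 forms the transporter that carries peptides into the endoplasmic reticulum, was detected in 82.2% (72.7 to 89.5) of the WT and 52.3% (41.3 to 63.2) of the KO cells. Its median was 280.9 FPKM in WT and 12.4 FPKM in KO, with maxima of 1211 and 914 FPKM. In cells that had the transcript the median was 360.2 FPKM in WT and 237.55 FPKM in KO, so the pools differed mainly in the number of cells at 0. Tap1 differed by -2.70 over all cells and -2.22 at equal genes per cell, and Tap2 by -2.31 and -1.50. The sign for Tap2 changed between ranges of genes per cell, with -2.65 from 1000 genes, 0.30 from 1500 and -2.92 from 2000. Psme1, a subunit of the PA28 activator of the proteasome, was detected in 86.7% and 60.5% of cells and differed by -2.46 and -1.91, and its partner Psme2 by -1.58 and -1.01. Nlrc5, the transactivator of class I genes, was detected in 76.7% and 44.2% and differed by -1.79 and -1.43.

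The immunoproteasome subunits behaved less uniformly. Psmb9 differed by -1.87 and Psmb10 by -1.81 over all cells, and by -0.67 and -0.78 at equal genes per cell. The sign for Psmb9 changed between ranges of genes per cell, with 0.68 from 1500 genes and -2.02 from 2000. Psmb8, in 85.6% and 81.4% of cells, differed by -0.90 and -0.05. The loading chaperones Calr and Pdia3, which also serve general protein folding, differed by -1.69 and -1.77 over all cells and -1.11 and -0.92 at equal genes per cell. Of the class I molecules themselves, H2-K1 and H2-D1 were near equal, in at least 98.9% of cells of both pools, with differences of -0.21 and 0.07. The light chain B2m differed by -0.32 over all cells and 0.00 at equal genes per cell. Of the 10 class I chains measured, 9 were below 0 over all cells and 6 at equal genes per cell, against 78.7% and 49.5% of all genes. Their medians were -0.43 and -0.14. At -1 or below there was 1 over all cells and none at equal genes per cell, against 13.3% and 2.11% of all genes.

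**Figure D3:**
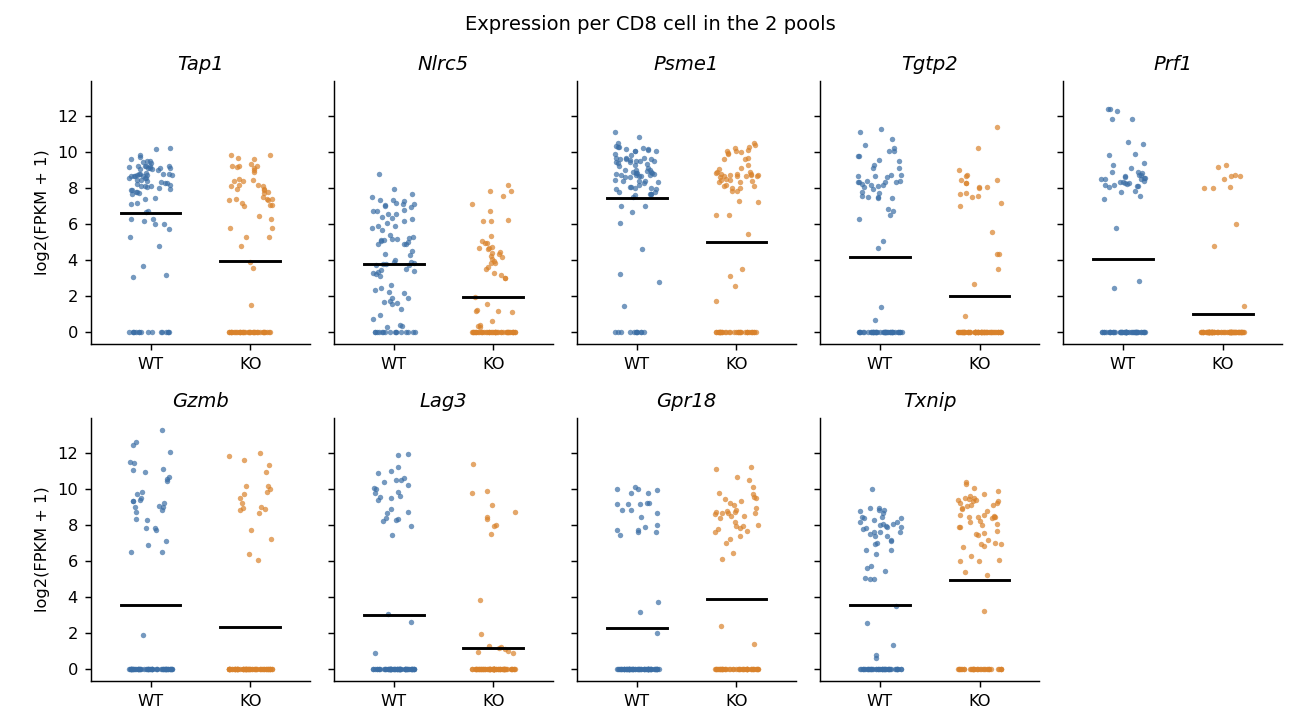
log2(FPKM + 1) of 9 genes in each CD8 cell of the WT pool (blue) and the KO pool (orange), with black lines at the means. Tap1, Nlrc5, Psme1, Tgtp2 and Prf1 are in a smaller share of KO than WT cells, and Gpr18 and Txnip in a larger one.

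These transcripts were found together in smaller shares of the KO cells. Tap1, Tap2, Psmb9 and Psme1 were all present in 41 WT cells (45.6%, 35.02 to 56.4) and 9 KO cells (10.5%, 4.90 to 18.9). Each of these genes was lower in KO over all cells, so a smaller joint share follows in part from the single shares. In the 21 WT cells with 3000 genes or more, Tap1 and Psme1 were in 21, Tap2 in 20 and Psmb9 in 19. The joint share was not computed at equal genes per cell. Tap1 and Psme1 were in smaller shares of KO cells with few and with many co-inhibitory receptors. Among cells with 0 or 1 of Pdcd1, Havcr2, Lag3 and Tigit, Tap1 was in 40 of 51 WT (78.4%, 64.7 to 88.7) and 29 of 63 KO cells (46.03%, 33.4 to 59.1), and Psme1 in 40 (78.4%, 64.7 to 88.7) and 38 (60.3%, 47.2 to 72.4). Among cells with 2 or more, Tap1 was in 34 of 39 (87.2%, 72.6 to 95.7) and 16 of 23 (69.6%, 47.1 to 86.8), and Psme1 in 38 (97.4%, 86.5 to 99.9) and 14 (60.9%, 38.5 to 80.3). The intervals overlap for Tap1 in the second class of cells and for Psme1 in the first. They cover counting error only, and cells of 1 pool are not replicates. Overlap or its absence is therefore no test between the pools, and none was made in either class.

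**Figure D4:**
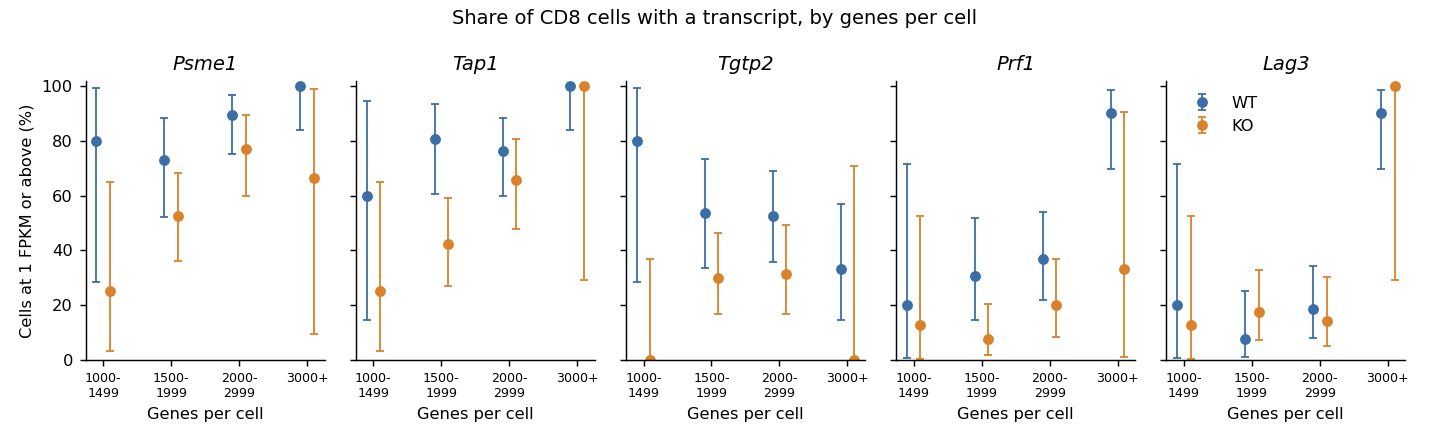
Share of CD8 cells at 1 FPKM or above for 5 genes (vertical axis, percent) against the number of genes per cell, for WT (blue) and KO (orange); bars are exact Clopper-Pearson 95% intervals and cover counting error only. Psme1 is higher in WT in all 4 ranges, and Lag3 differs between the pools mainly through the 21 WT cells with 3000 genes or more.

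Other antiviral interferon-stimulated genes divided. Of 41 in the list 27 were measured, 19 of them below 0 over all cells and 18 at equal genes per cell, with medians of -0.42 and -0.21, the first near that of all genes, of which 78.7% and 49.5% were below 0. 6 were at -1 or below over all cells and 4 at equal genes per cell, against 13.3% and 2.11% of all genes. Bst2 was in 44.4% of WT and 17.4% of KO cells, with maxima of 1085 and 177.5 FPKM, and differed by -2.34 and -1.49. Ifi47, a GTPase listed with this group, was in 66.7% and 46.5% and differed by -1.60 and -1.54. Dtx3l, a ubiquitin ligase, differed by -1.09 and -1.10, and Ddx58, the RNA sensor RIG-I, by -1.002 and -0.73. Ly6e, a GPI-anchored protein of the same response, was in 90% and 90.7% of cells and differed by -0.23 and 0.02. The surface antigen Ly6a differed by -1.82 and -0.89.

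Prf1, which encodes the pore-forming protein perforin of killer cells, had the lowest difference of all measured genes. It was detected in 42 of the 90 WT cells (46.7%, 36.1 to 57.5) against 12 of 86 KO cells (13.95%, 7.42 to 23.1), with maxima of 5414 and 619 FPKM. The difference was -3.02 over all cells and -1.51 at equal genes per cell, where the cells with 3000 genes or more are left out. Among cells with 2 or more of the 4 receptors it was in 27 of 39 WT (69.2%, 52.4 to 82.98) and 5 of 23 KO cells (21.7%, 7.46 to 43.7). Prf1 and the protease gene Gzmb were together in 29 WT (32.2%) and 8 KO cells (9.30%). Both were found with Ifng, the gene of interferon gamma, in 17 WT (18.9%, 11.4 to 28.5) and 2 KO cells (2.33%, 0.283 to 8.15). Of the 42 WT cells with Prf1, 19 had 3000 genes or more. Under 3000 genes Prf1 was in 23 of 69 WT and 11 of 83 KO cells. The counts with receptors, Gzmb and Ifng were not taken without the cells of 3000 genes or more.

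The rest of the cytotoxic list did not share this pattern. Of 17 measured genes 14 were below 0 over all cells, near the 78.7% of all genes, with a median of -0.56. At equal genes per cell 6 were, against 49.5%, with a median of 0.23. Gzmb was in 37.8% of WT and 24.4% of KO cells and differed by -1.23 over all cells and 0.78 at equal genes per cell. Ifng differed by -0.88 and 0.13, and Gzmk by -0.56 and 0.16. Ctsc, the protease that matures granzymes, was higher in KO at equal genes per cell, by 1.46, and Srgn, the granule proteoglycan, by 0.89. The NK-type receptor gene Klrk1, which encodes the activating receptor NKG2D, was in 54.4% and 31.4% of cells and differed by -1.70 and -1.10.

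Co-inhibitory receptors had no shared direction. 6 of the 10 measured were below 0 over all cells, against 78.7% of all genes, and 5 at equal genes per cell, against 49.5%, and the median over all cells, -0.43, was near the -0.40 of all genes. Single receptors differed more. Lag3 was detected in 32.2% (22.8 to 42.9) of the WT and 18.6% (11.02 to 28.4) of the KO cells and differed by -1.79, Havcr2 (TIM-3) in 27.8% and 8.14% by -1.60, and Pdcd1 (PD-1) in 40% and 26.7% by -1.41. At equal genes per cell these differences were -0.16, -0.25 and 0.20. Tigit, in 58.9% and 62.8% of cells, differed by 0.02 over all cells and 1.36 at equal genes per cell, and Ctla4 by 0.14 and 1.33. Of the 10 measured receptors, 4 were at -1 or below over all cells, against 13.3% of all genes, and none at equal genes per cell, where the median was 0.08. The transcription factor Tox, which sustains exhausted cells, went from -1.15 to 0.20, and Tbx21, which encodes T-bet, from -0.91 to -0.08. The regulators linked to IL-27 were too sparse for a comparison: Prdm1 (Blimp-1) was in 13.3% and 6.98% of cells, Maf in 2.22% and 4.65%, and Il10 in 1.11% and 1.16%, with a highest Il10 value of 1.77 FPKM.

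Lists of general cell functions differed between the descriptions. Medians over all cells and at equal genes per cell were -0.98 and 0.25 for 13 glycolysis genes, -0.96 and -0.08 for 33 subunits of respiratory complex I, -0.94 and -0.03 for 24 of complexes II to IV, and -0.86 and 0.18 for 15 of ATP synthase. Over all cells 13 of 13, 32 of 33, 24 of 24 and 15 of 15 of these genes were below 0, and at equal genes per cell 6, 17, 12 and 5, against 78.7% and 49.5% of all genes. The constitutive proteasome, with 31 subunits, had medians of -0.81 and 0.10, and 31 and 14 subunits below 0. Of its interferon-inducible partners above, Psmb9 and Psmb10 stood lower than these medians in both descriptions, and Psmb8 stood near them. The contrast between the lists was not tested. Genes of DNA replication were at -0.97 and -0.34, with Mcm5, a subunit of the replicative helicase, at -1.48 and -1.05. Heat shock proteins and chaperones were at -0.96 and -0.16, and within them Hsp90aa1, the inducible HSP90, at -2.32 and -1.61.

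Genes of resting T cells were higher in KO. Of 18 genes of quiescence and metabolic restraint 13 were measured, and 3 of them were below 0 over all cells and 2 at equal genes per cell, against 78.7% and 49.5% of all measured genes. The medians were 0.53 and 0.77. The mean log2 level of the 13 genes ranged from 0 to 4.96 with a median of 2.69 in WT cells and from 0.388 to 5.94 with a median of 3.31 in KO cells, and 25 of 86 KO cells lay below the WT median. Txnip, an inhibitor of glucose uptake, was in 48.9% of WT and 60.5% of KO cells, with medians of 0.625 and 116.97 FPKM, and differed by 1.40 and 1.35. Btg2, an anti-proliferative gene, differed by 1.09 and 1.21. Pdcd4, an inhibitor of translation initiation, was in 87.8% and 97.7% of cells and differed by 1.07 and 0.97. Abcg1, a cholesterol exporter, was in 35.6% (25.7 to 46.3) and 58.1% (47.01 to 68.7) and differed by 1.30 and 1.16. Cdkn1b, the cell cycle inhibitor p27, differed by 0.84 and 0.81, and Pik3ip1, an inhibitor of PI3 kinase, by 0.88 and 0.84.

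Receptors that guide T cells were also higher. Of 9 measured chemokine receptors and related genes, 2 were below 0 over all cells and 1 at equal genes per cell, against 78.7% and 49.5% of all genes, with medians of 0.64 and 0.71. Gpr18, a receptor of tissue T cells, was in 27.8% of WT (18.9 to 38.2) and 46.5% of KO cells (35.7 to 57.6), at a maximum of 1080 and 2337 FPKM, and had the highest difference of all measured genes, 1.62, with 1.44 at equal genes per cell. S1pr4, a sphingosine phosphate receptor, differed by 0.94 and 1.58. S1pr1, the receptor for exit from tissue, differed by 0.52 over all cells and -0.34 at equal genes per cell, and Cxcr3 by 0.64 and 0.48.

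Naive and memory genes were higher in KO over all cells alone. Tcf7, which encodes TCF-1, was in 52.2% and 65.1% of cells and differed by 1.004, and Il7r, the IL-7 receptor, was in 54.4% and 69.8% and differed by 1.07. At equal genes per cell they differed by 0.09 and 0.24. The list of 13 measured genes had medians of 0.43 and 0.07. Ccr7, a lymph node homing receptor, differed by 0.15 and 0.22.

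Among single genes with the lowest differences at equal genes per cell, several belonged to none of the interferon lists. Dad1, a subunit of the oligosaccharyltransferase, was in 80% and 60.5% of cells and stood at -1.79. The alpha tubulin Tuba1b stood at -1.70, the chromatin protein Hmgn1 at -1.66, and the autophagy gene Vmp1, which had the widest gap in shares (68.9% of WT against 33.7% of KO cells), at -1.58. The splicing factor Bcas2 was at -1.53. At the other end stood Chtop, an mRNA export factor, at 1.67, the actin-capping protein Capg at 1.65, the splicing kinase Clk1 at 1.54, the small GTPase Rhog at 1.54, and Cdc25b, a mitotic phosphatase, at 1.496. Ets1, a lymphoid transcription factor in 92.2% and 97.7% of cells, was at 1.46, with 1.17 over all cells. The widest gap towards KO, for the olfactory receptor gene Olfr1033 (24.4% against 58.1%), came from low values, with medians of 1.96 and 1.88 FPKM in the cells that had it, and no cell reached 10 FPKM.

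The CD4 sorts of the same genotypes, with 85 WT and 89 KO cells, gave a second pair of pools with cells of their own. They are named as CD4 by the sample titles, while the treatment text of every sample names CD8 cells only; Cd4 was at 1 FPKM or above in 74 of the WT and 78 of the KO cells, and Cd8a or Cd8b1 in 22 and 20. In CD4 cells the balance over all cells was the other way round: of 3864 measured genes 38 (0.983%) were at -1 or below and 9.91% at 1 or above, with 33.9% below 0 and a median of 0.23. It was nearly level there too at equal genes per cell, with 2.59% at -1 or below, 3.91% at 1 or above, 49.3% below 0 and a median of 0.01. Of 3359 genes measured in both sorts, 20 (0.595%) were at least 1 log2 unit in size with the same sign, 13 lower and 7 higher in KO, and 68 (2.02%) with opposite signs, all of them lower in KO CD8 and higher in KO CD4 cells. 10 of the 20 and 12 of the 68 were also of that size in CD8 cells at equal genes per cell.

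Several interferon-linked genes were among the 13 that were lower in both. Tgtp2 differed by -2.15 in CD8 and -2.35 in CD4 cells, Gbp6 by -1.86 and -1.29, Gbp4 by -1.11 and -1.65, and Irgm1 by -1.08 and -1.03. Lag3 differed by -1.79 and -1.37, and the protease inhibitor Serpina3g by -2.31 and -1.92. Lag3 was at -0.16 in CD8 and -1.85 in CD4 cells at equal genes per cell, and Serpina3g at -0.81 and -2.21. Higher in both were Clk1, Btg2, Cdc25b and Gata3, the factor of helper cells, at 1.12, 1.09, 1.21 and 1.03 in CD8 and 1.26, 1.76, 1.05 and 1.40 in CD4 cells. The GTPase list had medians of -1.03 in CD8 and -1.001 in CD4 cells, with 13 of 13 measured members below 0 in CD4. The peptide loading list had medians of -1.73 and -0.03, and -0.91 and -0.71 at equal genes per cell. Socs3 differed by -0.28 in CD8 and -3.07 in CD4 cells. Whether the sorts differ in these values was not tested, since each genotype and sort is 1 pool.

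**Figure D5:**
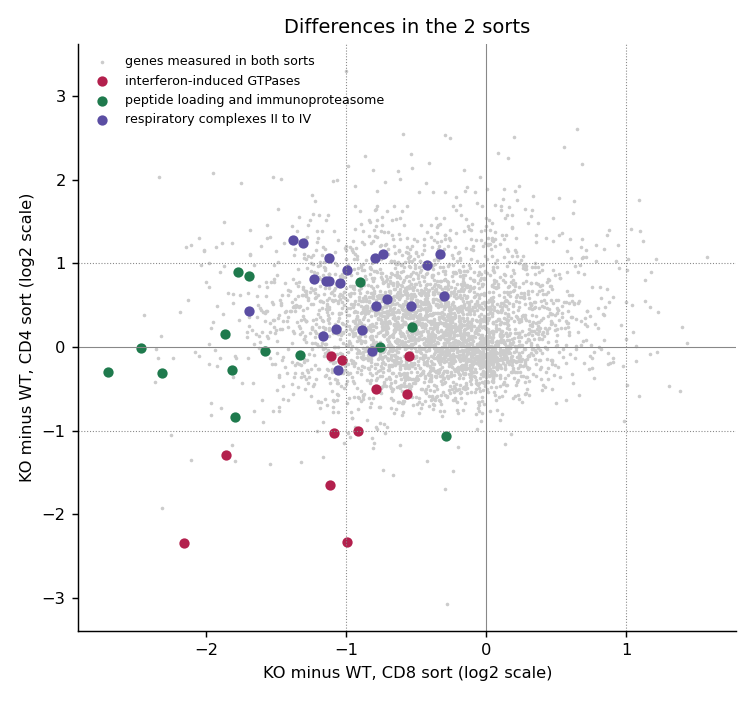
KO minus WT difference of mean log2(FPKM + 1) in CD8 cells (horizontal axis) and CD4 cells (vertical axis) for the 3359 genes measured in both sorts (grey), with 3 lists in colour and dotted lines at -1 and 1. Interferon-induced GTPases lie below 0 on both axes, peptide loading genes below 0 in CD8 and on either side of 0 in CD4, and respiratory complexes II to IV mostly below 0 in CD8 and above 0 in CD4.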

How the data were processed

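Single CD8-sorted cells were compared between 2 pools. Per the submitters' processing notes, the authors used Bowtie and RSEM on mm10 (versions not given in the sources used here) and deposited gene-level FPKM normalized between cells by TMM. The table held 23366 rows and 375 columns; 4 columns of another kind and 4 repeated-symbol rows were not used. FPKM are not counts, so no count model was fitted and read depth is unknown; 1 pool per group gives no test. TMM can shift all genes of a cell together, hence the values at equal genes per cell and with each cell rescaled to an equal total. Shares carry exact Clopper-Pearson 95% intervals (counting error only; a count of 0 allows 3). Named genes were Il27ra, Cd8a and Cd8b1, the 20 lowest and 20 highest differences, the 15 of each at equal genes per cell, the 4 of largest size in each of 54 lists, the 10 largest share gaps each way and genes of size 1 in both sorts; the ranks skip receptor segments, predicted genes, Rik clones and pseudogenes. Other list members are named for their roles, after their values were seen. Some named genes are not reported here. The members and lists were chosen with earlier results of these data known. 14 of 800 list entries matched no row, 13 of them mitochondrial. Python 3.11.15, numpy 2.4.6, pandas 2.3.3 and scipy 1.17.1 were used. The estimators were tested on simulated data. Promoters come from RefSeq (GRCm38.p6) and coordinates from GENCODE on mm10.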

Additional observations from a re-analysis of the deposited data

Results flagged for a closer look

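A difference that points in opposite directions in the 2 sorts marked 68 genes, each at least 1 log2 unit lower in KO CD8 cells and at least 1 higher in KO CD4 cells. Of the 68, 62 kept both signs at equal genes per cell and 3 were still at least 1 in size in both sorts. The difference between the sorts was not tested, and genes per cell differed between WT and KO in opposite directions in the sorts, with medians of 2148 and 1955 in CD8 and 1661 and 1868 in CD4. The 10 genes with the largest size in both sorts, and those among the 20 lowest in CD8, are given with their CD8 and then CD4 difference. Dad1, of the oligosaccharyltransferase, stood at -2.33 and 2.03, and at -1.79 and 1.36 at equal genes per cell. In CD8 cells it was at -3.61 in the range from 1500 genes per cell and at -0.29 from 2000. Ndufs7, of respiratory complex I, stood at -1.87 and 1.49, and at -1.53 and 1.35 at equal genes per cell. The intermediate filament gene Vim stood at -1.95 and 2.08, and galectin 1 (Lgals1) at -1.46 and 2.01; at equal genes per cell Vim was at -0.84 and 1.18 and Lgals1 at -0.20 and 1.31. Gdi2, which recycles Rab GTPases, stood at -1.75 and 1.96, Cd164 at -1.52 and 2.03, and Snx5, a sorting nexin, at -2.11 and 1.21. These 3 were at -0.98, -0.91 and -0.89 in CD8 and at 1.43, 1.74 and 0.89 in CD4 cells at equal genes per cell. Timm23, of the mitochondrial import channel, stood at -2.05 and 1.30, and the glycolytic enzyme Pgam1 at -2.14 and 1.19, and at equal genes per cell Timm23 was at -1.12 and 0.94 and Pgam1 at -0.91 and 0.58. Polr1d, Cuta, Rbm3 and Degs1 stood at -1.49, -1.56, -1.68 and -1.38 in CD8 and at 1.64, 1.46, 1.40 and 1.44 in CD4. These 4 were, at equal genes per cell, at -0.57, -1.15, -1.02 and -0.55 in CD8 and at 1.06, 1.06, 0.74 and 0.95 in CD4 cells.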

How the results depend on the processing

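No paired analysis was possible because each group is 1 pool and the numbers in the labels only name cells, with no number shared between groups. Over all cells 13.3% of measured genes lay at -1 or below and 0.555% at 1 or above, with a median difference of -0.40; at equal genes per cell 2.11% and 2.5% did, with a median of 0.0045. In that order, 4 shares and the first median were 30.8%, 1.77%, 6.74%, 8.47% and -0.63 with a pseudocount of 0.1, and 1.79%, 0.0213%, 0.149%, 0.0854% and -0.19 with one of 10. In cells with 0 or 1 receptor they were 4.96%, 3.21%, 4.91%, 4.65% and -0.0074. In cells with 2000 genes or more the shares were 18.2%, 2.19%, 5.76% and 7.14%. In 37 WT and 33 KO cells with Cd8a or Cd8b1 and no other marker, the higher share was 5.49%, the median -0.073 and the shares at equal genes per cell 9.10% and 9.22%. Rescaling each cell to an equal total gave 1.11% higher and, at equal genes per cell, 3.54% lower. No filter on cells gave 0.354% higher, no filter on genes a median of -0.090, and the log2 ratio of mean FPKM 2.07% higher and a median of -0.23.

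Of the alternatives, 2 were chosen after seeing the data. Without cells of 3000 genes or more the first pair of shares was 4.02% and 2.12% and the median -0.045, and without cells with other immune markers the shares at equal genes per cell were 3.77% and 4.01%. The medians of 23 of 41 lists lay on both sides of 0 over the reported value and the alternatives. Among the named genes and the 3 lists whose median was at least 1 in size over all cells, some genes and 1 list turned sign. Without cells of 3000 genes or more Gzmb was at 0.68, Pdcd1 at 0.14, Tox at 0.12 and Tcf7 at -0.056; at equal genes per cell Gzmb was at 0.78, Pdcd1 at 0.20 and Tox at 0.20. In cells with 0 or 1 receptor Gzmb was at 0.58 and Lag3 at 0.090. In Cd8a or Cd8b1 cells without other markers Gzmb was at 0.54, Degs1 at 0.25, Calr at 0.16 and the median of NK-type lectin receptors at 0.57. The cause was not tested. Over the 16 alternatives Tap1 stayed between -4.08 and -0.98, Tgtp2 between -3.46 and -1.27, Prf1 between -4.10 and -1.49, the GTPase median between -1.61 and -0.58 and the peptide loading median between -2.56 and -0.67. Read depth is unknown, so a cell at 0 may hold the transcript, and values at equal genes per cell rest on 69 WT and 83 KO cells.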
